A study of Mus musculus with 20 samples.

Results

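The comparison concerns LNA489, a locked nucleic acid inhibitor of the microRNA miR-489-3p, in the aortic endothelium of mice with chronic kidney disease. Its members are 16 of the 20 RNA-seq libraries, chosen by their labels alone: every mouse treated with HDL (high-density lipoprotein), of which 8 also received LNA489 and 8 did not. All mice were female Apoe-/- animals (B6.129P2-Apoetm1Unc/J) on regular chow, a strain that lacks apolipoprotein E and is prone to atherosclerosis. Each underwent 5/6 nephrectomy, the removal of most kidney tissue, at 9 weeks of age, was treated once by the retro-orbital route 7 weeks later, and was sampled 1 week after that. The 8 mice with LNA489 were the LNA489 group (HDL 4 mg and LNA489 20 mg/kg, 4 mice) and the dual group (HDL 4 mg with LNA489 and LNA92a at 20 mg/kg each, 40 mg/kg in total, 4 mice). The 8 mice without it were the LNA92a group (HDL 4 mg and LNA92a 20 mg/kg, 4 mice) and the HDL group (HDL 4 mg alone, 4 mice). LNA92a inhibits miR-92a-3p. The labels give no control oligonucleotide, so LNA489 as such and the receipt of any further LNA cannot be told apart. The 4 saline mice, with the same genotype and surgery but neither HDL nor an inhibitor, stayed outside the comparison and are given as background. A library goes by its group and its mouse's number (HDL 11), and each came from its own mouse.

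A microRNA guides an Argonaute protein to messenger RNAs whose 3′ untranslated region (UTR) pairs with its seed, bases 2 to 8, and these messages are then less stable and less translated. Blocking a microRNA with a complementary inhibitor can therefore leave its targets at a higher level. HDL particles carry microRNAs in blood, and in arteries HDL is best known for taking up cholesterol that macrophages export.

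The mature sequences of both microRNAs are shown with the seed in capitals, because the target sites described here are read from the seed of miR-489-3p. Both are from RefSeq on GRCm38.p6.
mmu-miR-489-3p: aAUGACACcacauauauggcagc
mmu-miR-92a-3p: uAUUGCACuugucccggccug
The seeds differ, so the inhibitors address separate sets of sites. The miR-489-3p arm lies at chr6:3721922-3721944 on the minus strand, inside Calcr, the calcitonin receptor gene. The deposited tables give gene-level reads of total RNA, and no level of either mature microRNA was used here. Calcr had no read in any of the 8 libraries with LNA489, while 3 of the 8 without it had values of 0.052 to 0.11 FPKM (fragments per kilobase of length and M, mega, assigned reads) and the 4 saline libraries had none, so it was not tested.

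A match to the seed reads GTGTCATA (8mer), GTGTCAT (7mer-m8) or TGTCATA (7mer-A1) on the transcript strand, the only strand searched, and an 8mer contains both shorter forms. The 30 or 29 bases around 5 such sites are printed with the match in capitals, from GENCODE M21 transcripts on GRCm38. Kin and Igf1 are the genes with an 8mer that had the smallest unadjusted p, Slc6a6 and Hexim2 are among the 20 genes with the smallest p in either direction, and Dek is a reported target.
Kin, 8mer, chr2:10092696-10092703, plus strand: ctatgttttttttaaGTGTCATAactgtta
Igf1, 8mer, chr10:87936979-87936986, plus strand: aattgtatggctagaGTGTCATAataaaat
Dek, 8mer, chr13:47085327-47085334, minus strand: ttgtgttaactctaaGTGTCATAgaaattt
Slc6a6, 7mer-m8, chr6:91758450-91758456, plus strand: tgggagggaggagtgGTGTCATtgtcatt
Hexim2, 7mer-m8, chr11:103139547-103139553, plus strand: cactctgcccggcttGTGTCATgctgtgg
The coordinates cover the capitals. All 5 sites share GTGTCAT, and their genes lay on both sides of 0: the log2 difference was -0.62 for Kin, 0.98 for Igf1, -0.11 for Dek, 0.80 for Slc6a6 and -0.59 for Hexim2, none of them past the adjusted threshold.

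Before the genes, the libraries themselves are described, and no library measure had an adjusted permutation p under 0.05. Assigned reads averaged 16.8 ± 3.17 M (mega) with LNA489 and 13.7 ± 2.27 M without (SD, n = 8 each), a difference of 3.13 M with an exact 2-sided permutation p of 0.0482 within LNA92a strata, or 0.124 adjusted over the 3 library measures. The ribosomal RNA gene Rn18s-rs5 took 6.6% ± 3.25 of the reads with LNA489 and 11.8% ± 7.09 without (exact permutation p = 0.0824, adjusted 0.124). The highest shares were those of LNA92a 5, 17 and 18, at 19.1%, 22.4% and 18.2%. The LNA489 libraries (4.16% to 12.0%) overlapped the HDL libraries (4.79% to 10.5%). FPKM counts ribosomal reads in its denominator. The median difference of all tested genes was 0.19 on log2(FPKM + 0.1) but -0.02 on the variance-stabilized log2 scale. On log2(FPKM + 0.1) it was -0.10 for LNA489 against HDL and 0.45 for dual against LNA92a. Unless another scale is named, all differences and tests below are on the variance-stabilized scale. Some libraries stood apart: HDL 11 stood out for B and plasma cell genes (list mean 11.94, against 6.95 to 9.87 in the other 15), LNA489 7 had the fewest genes with a read (17378), and Dual 10 alone had a high adrenal cortex list mean (12.32, against 5.16 to 6.78 in the other 15). The endothelial marker Pecam1 ran from 38.6 to 700.3 FPKM with LNA489 and from 10.8 to 1008 FPKM without, so every library held endothelial RNA, in very unequal amounts.

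No gene passed the test of the LNA489 main effect. With the presence of LNA92a as a covariate, limma called 0 of 16848 genes (0%) at a Benjamini-Hochberg adjusted p under 0.05, and the smallest adjusted p was 1.00. At an unadjusted p under 0.05 there were 474 genes (2.81%), 240 higher (1.42%) and 234 lower (1.39%) with LNA489, and 62 genes (0.368%) lay under 0.01. The 474 became 303 without LNA92a 17. No gene had all 8 libraries with LNA489 on one side of all 8 without it (0%). At the median standard error of 0.25, an unadjusted p under 0.05 took a log2 difference of 0.53. Genes with a smaller standard error reached it at smaller differences, and the adjusted threshold takes larger ones. The genes described next are those with the smallest p, given as values. Their unadjusted p-values come from limma, and their adjusted p was 1.00 throughout.

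Epb41l3, which encodes the membrane skeleton linker protein 4.1B, had the smallest p of the main effect. It measured 10.3, 46.4, 16.1 and 8.32 FPKM in the LNA489 libraries and 17.1, 31.7, 16.8 and 25 FPKM in the dual libraries, against 5.38, 8.64, 3.73 and 10.4 FPKM in the LNA92a libraries and 7.99, 5.41, 8.10 and 9.05 FPKM in the HDL libraries. On the log2 scale, all 8 libraries with LNA489 lay above the median of those without, and 6 lay above their highest. The log2 difference was 1.13 ± 0.25 (SE, unadjusted p = 3.17e-04). It was 1.08 ± 0.36 for LNA489 against HDL and 1.19 ± 0.36 for dual against LNA92a. The main effect averages these 2 estimates, so a gene picked by its main-effect p tends to have the same sign in both. Of the 474 genes at an unadjusted p under 0.05 in the main effect, 470 (99.2%) had the same sign, against 43.5% of all tested genes. The saline libraries, with no inhibitor, spanned 6.69 to 55.0 FPKM, which overlaps both sets. Epb41l3 lies on chromosome 17, 69075683 to 69289989 (GRCm38).

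Creg1 and Slc6a6 were also among the genes with the smallest p on the higher side. Creg1, a lysosomal glycoprotein, averaged 118 ± 76.2 FPKM with LNA489 and 43.3 ± 13.5 FPKM without (SD, n = 8 each), a log2 difference of 1.00 ± 0.31 (SE), and its highest value, 267 FPKM, came from LNA489 13. Slc6a6, the taurine transporter, was lowest at 19.2, in the middle at 32.3 and highest at 71.5 FPKM with LNA489, against 7.75, 17.9 and 23.6 FPKM without. For Slc6a6 all 8 libraries with LNA489 exceeded the median of those without, and the log2 difference was 0.80 ± 0.22; an exon of Gm44981 overlaps it, which makes its reads uncertain. In both genes the 2 sets of libraries overlapped, and the saline range (44.9 to 272 FPKM for Creg1, 21.1 to 99.6 for Slc6a6) reached above both.

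Cyp4v3, a fatty acid hydroxylase of the cytochrome P450 family, had nearly equal differences whether or not LNA92a was given, 0.59 ± 0.24 for LNA489 against HDL and 0.56 ± 0.24 for dual against LNA92a. It averaged 12.0 ± 4.00 FPKM with LNA489 and 6.59 ± 1.51 FPKM without, and 7 of 8 libraries with LNA489 lay above the highest without on the log2 scale. Gm45753 overlaps its exons. Ifi207, an interferon-inducible gene of the p200 family, was at 21.8, 28.0 and 37.2 FPKM (lowest, median, highest) with LNA489 and at 5.85, 14.8 and 23.9 FPKM without (0.85 ± 0.26), and Ear2, a ribonuclease of the eosinophil-associated family, averaged 39.0 ± 21.5 and 14.2 ± 7.54 FPKM (1.02 ± 0.31). Both have close paralogs, among which reads may be split. Kcna2, a voltage-gated potassium channel, had 1.23 ± 0.37, most of it from the dual group (1.95 ± 0.46, against 0.51 ± 0.46 for LNA489 against HDL). Prkar1b, a regulatory subunit of protein kinase A, had 0.73 ± 0.21 and the antisense gene Gm44418 0.80, both uncertain because another gene lies on the same bases. With the macrophage list mean as a further covariate, an alternative chosen after seeing the data, these higher genes were closer to 0. Epb41l3 was at 0.56, Kcna2 at 0.41, Slc6a6 at 0.28, Ear2 at 0.27, Cyp4v3 at 0.22 and Creg1 at 0.21.

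On the lower side, 5 of the 10 genes with the smallest p were small noncoding RNAs, a pseudogene or an antisense gene with at most 62 reads in any library, and these are uncertain as well. They were AF357399 (a small nucleolar RNA, -0.88), Gm25492 and Gm26347 (small Cajal body RNAs, -0.98 and -0.85), Gm10916 (a processed pseudogene, -0.67) and Gm12264 (antisense to Mprip, -0.75). Among the protein-coding ones, Kin, a DNA- and RNA-binding protein, has the 8mer printed above in its 3′ UTR. It measured 4.64, 5.43, 3.62 and 4.85 FPKM in the LNA489 libraries and 6.50, 7.11, 2.68 and 5.00 FPKM in the dual libraries, against 6.77, 6.83, 5.61 and 4.19 FPKM in the LNA92a libraries and 8.93, 6.23, 12.0 and 8.23 FPKM in the HDL libraries. The log2 difference was -0.62 ± 0.18 (unadjusted p = 0.0027), with -0.70 ± 0.26 in LNA489 against HDL and -0.55 ± 0.26 in dual against LNA92a. Kin lies on chromosome 2, 10080593 to 10092806.

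Ahr, the ligand-activated aryl hydrocarbon receptor, averaged 3.63 ± 1.02 FPKM with LNA489 and 4.81 ± 1.78 FPKM without (-0.55 ± 0.16), with exons overlapped by Gm48236. Hexim2, an inhibitor of the elongation factor P-TEFb, averaged 1.23 ± 0.406 and 1.99 ± 0.615 FPKM (-0.59 ± 0.17). Rrad, a small GTPase that restrains calcium channels, had -0.83 ± 0.23 and is overlapped by Gm33023. Rflnb, a filamin-binding protein, had -0.74 ± 0.21, of which -1.16 ± 0.27 belonged to LNA489 against HDL and -0.31 ± 0.27 to dual against LNA92a. For each of these 4 genes no library with LNA489 exceeded the median of those without on the log2 scale, but the sets overlapped. The plot of FPKM by library shows 8 of the genes with the smallest p.

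**Figure D1:**
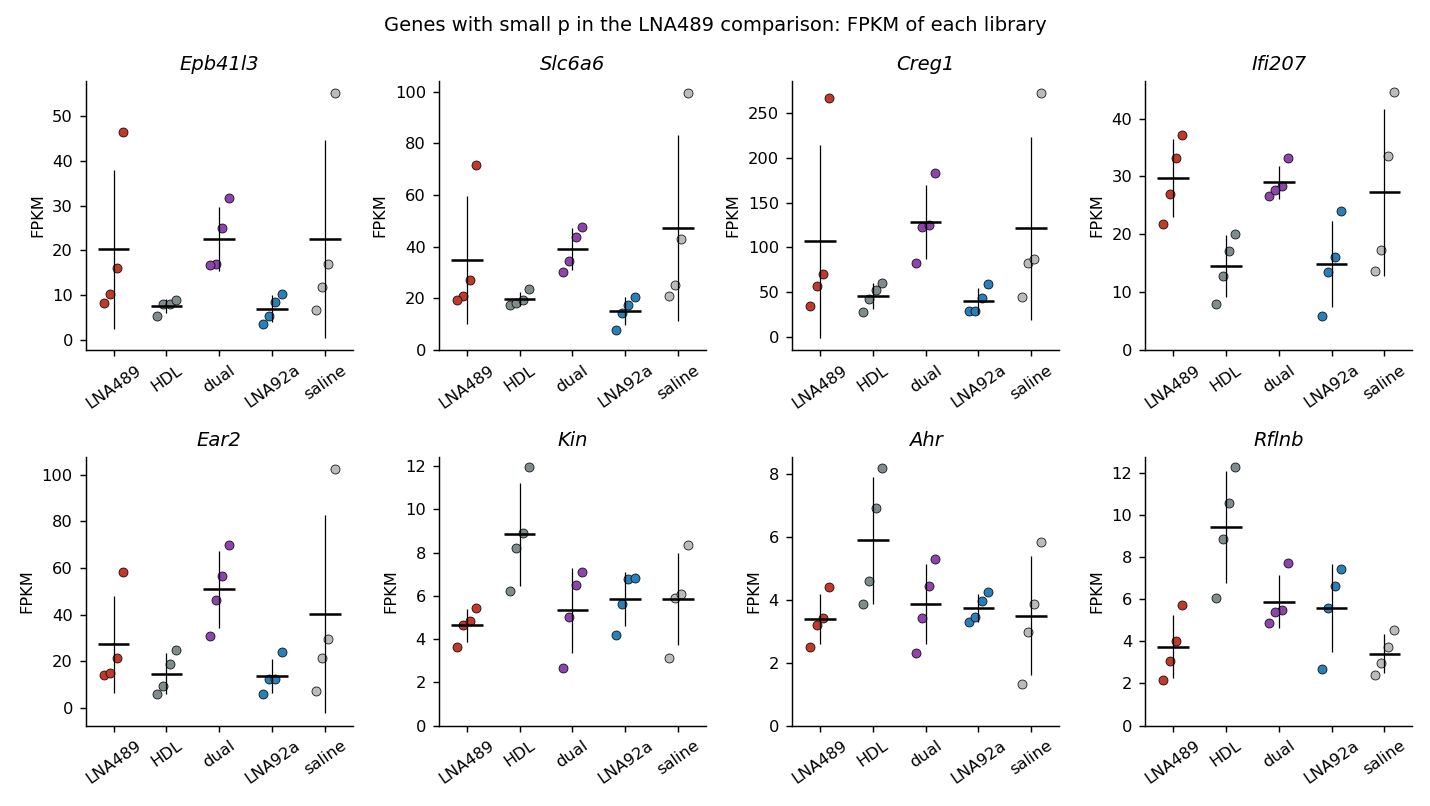
FPKM of 8 genes (y axis, linear) in each library of the LNA489, HDL, dual, LNA92a and saline groups (x axis, 4 points a group); the bar is the group mean and the line ± 1 SD. The LNA489 and dual points lie mostly above (Epb41l3, mean 21.5 against 7.34 FPKM) or below (Kin, mean 4.98 against 7.34 FPKM) those of HDL and LNA92a, with overlap in each panel, and LNA489 13 holds the highest LNA489 point in Epb41l3 at 46.4 FPKM.

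Among the 27 gene lists, which hold 324 tested genes, the macrophage and monocyte markers had the largest median difference. Of its 15 members 14 lay above 0, against 46.2% of all tested genes (53.8% lay below), with a list median of 0.90 against -0.02 for all. No member passed the adjusted test; 8 of 15 were higher at an unadjusted p under 0.05, where the background for higher genes is 1.42%, and 0 were lower. Markers of 1 cell type are not independent of each other, so these 8 are not 8 separate results. In bulk RNA, more cells of a type and more RNA per cell cannot be told apart.

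Csf1r, the receptor for the macrophage growth factor CSF-1, measured 53.1, 66.0, 60.1 and 42.9 FPKM in the LNA489 libraries and 60.2, 57.1, 44.8 and 44.1 FPKM in the dual libraries, against 32.4, 57.7, 13.0 and 20.6 FPKM in the LNA92a libraries and 27.7, 50.3, 22.8 and 28.3 FPKM in the HDL libraries. All 8 libraries with LNA489 lay above the median of those without, yet LNA92a 12 and HDL 4 sat inside their range, and the log2 difference was 0.65 ± 0.26 (unadjusted p = 0.0212). An exon of Hmgxb3 overlaps Csf1r, which makes its reads uncertain. C1qa, a chain of complement C1q that macrophages secrete, ran over 88.4, 170 and 375 FPKM (lowest, median, highest) with LNA489 and 47.7, 85.9 and 181 FPKM without (0.70 ± 0.28). Adgre1, which encodes the F4/80 antigen, ran over 11.0, 15.5 and 32.1 FPKM and over 5.31, 8.71 and 22.8 FPKM without (0.65 ± 0.27). Gpnmb, a glycoprotein of lipid-laden macrophages named after its values were seen, had the largest difference of the 15, 1.79 ± 0.80, with 64.0 to 1461 FPKM with LNA489 and 7.94 to 366.6 FPKM without. Cd14, the lipopolysaccharide co-receptor, was the 1 member below 0 (-0.02 ± 0.31).

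Both single comparisons had positive macrophage medians, 0.41 for LNA489 against HDL (15 of 15 members above 0, against 44.8% of all genes) and 1.49 for dual against LNA92a (12 of 15, against 47.4% of all genes). Per library the macrophage list mean, an average of variance-stabilized values, was 10.67, 12.08, 10.38 and 10.36 in the LNA489 libraries and 11.46, 11.83, 11.40 and 11.29 in the dual libraries, against 9.87, 10.65, 9.77 and 10.88 in the LNA92a libraries and 11.14, 10.01, 9.40 and 10.58 in the HDL libraries. The 4 dual libraries lay above all 4 LNA92a libraries, while 3 of the 4 LNA489 libraries lay within the HDL range. Saline libraries, at 10.59 to 11.96, reached nearly as high as the highest library with LNA489. The summed level of the 15 markers ran from 1231 to 12796 FPKM with LNA489 and from 702 to 3690 FPKM without, and no marker was at 0 in any of the 16 libraries. The count of 8 rested on few mice. It was 1 without LNA489 13, 1 without Dual 10, 1 without LNA92a 17, 2 without HDL 11, 3 without LNA92a 5, 4 without Dual 21 or without HDL 4, 5 without Dual 15 or without LNA92a 12, and 12 without HDL 3, while the median stayed between 0.74 and 1.09 whichever single library was left out.

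**Figure D2:**
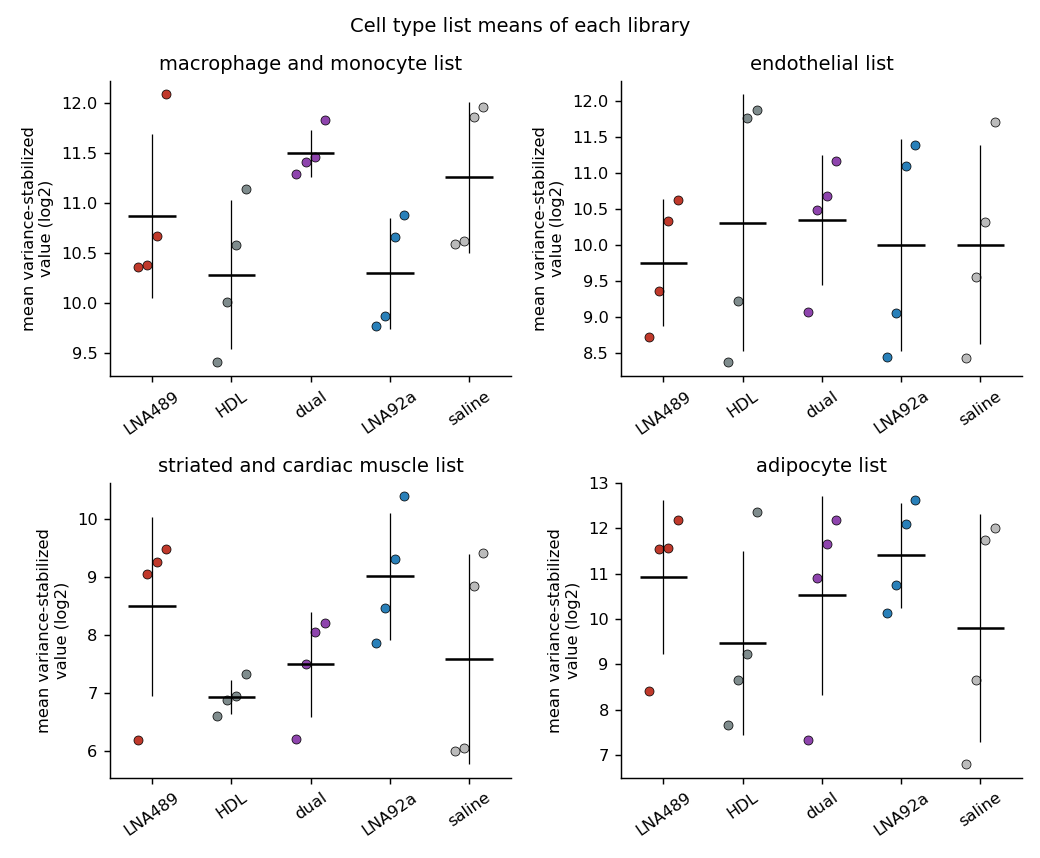
Mean variance-stabilized log2 value of the macrophage, endothelial, muscle and adipocyte lists (y axis) in each library (points) of the LNA489, HDL, dual, LNA92a and saline groups (x axis), with the group mean as a bar and ± 1 SD as a line. Macrophage list means of the dual libraries (11.29 to 11.83) lie above those of the LNA92a libraries (9.77 to 10.88), and those of LNA489 (10.36 to 12.08) overlap HDL (9.40 to 11.14).

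Genes of cholesterol efflux, which load cholesterol from macrophages and other cells onto HDL, had the highest list median after macrophage and adrenal cortex genes. It was 0.42, with 10 of 12 members above 0 (46.2% of all tested genes were) and none called. Of the 12, 2 were higher at an unadjusted p under 0.05, where the background for higher genes is 1.42%. Pltp, the phospholipid transfer protein that remodels HDL, ran over 49.6, 101 and 225 FPKM with LNA489 and 22.9, 50 and 106 FPKM without (0.94 ± 0.32, unadjusted p = 0.0102). Npc1, which moves cholesterol out of lysosomes, ran over 9.02, 13.4 and 26.4 FPKM and over 5.72, 9.31 and 12.7 FPKM without (0.44 ± 0.20, unadjusted p = 0.0478). Abca1, the transporter that passes cholesterol to apolipoprotein A-I, ran over 61.6, 93.5 and 297 FPKM with LNA489 and 33.7, 58.1 and 134 FPKM without (0.62 ± 0.30). Exons of Ctsa overlap Pltp and exons of Rmc1 overlap Npc1, so the reads of both are uncertain. All 3 were highest in LNA489 13, the library with the highest macrophage list mean. With the macrophage list mean as a further covariate, an alternative chosen after seeing the data, the efflux median was -0.13 and the macrophage median itself -0.22. In that fit no efflux gene had an unadjusted p under 0.05. The covariate is the average of the macrophage genes themselves, so their average difference is fixed at 0 by construction. Genes that vary with them lose their difference too, and the source of the efflux difference was not tested. Apoe, the gene disrupted in all these mice, had 3.70 to 24.7 FPKM with LNA489 and 2.31 to 22.6 FPKM without (0.30 ± 0.38), so its level does not check the group labels.

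Over all tested genes 2.81% had an unadjusted p under 0.05, and in the flow-responsive endothelial list 1 of 10, Hmox1, did. Hmox1, heme oxygenase, breaks down heme and is high in macrophages that clear red cells. It measured 27.5, 228, 29.3 and 18.7 FPKM in the LNA489 libraries and 48.7, 142, 43.4 and 61.7 FPKM in the dual libraries, against 9.83, 16.4, 8.67 and 31.3 FPKM in the LNA92a libraries and 42.3, 24.6, 16.7 and 21.9 FPKM in the HDL libraries. The log2 difference was 1.21 ± 0.42 (unadjusted p = 0.0103), and LNA489 13 and Dual 10 held the highest values, as they did for the macrophage list mean. Nfe2l2, the transcription factor that drives antioxidant genes, had 0.34 ± 0.18, and Procr, the endothelial protein C receptor, 0.31 ± 0.28. The list's median was -0.07 on the variance-stabilized scale but 0.16 on log2(FPKM + 0.1), where all genes shift by 0.19, and it ran from -0.31 to 0.08 with 1 library left out.

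Endothelial markers varied more within the sets than between them. Of the 15, 4 lay above 0, none reached an unadjusted p under 0.05, and the median was -0.09 (0.14 on log2(FPKM + 0.1)), with standard errors of 0.32 to 0.95. The median ran from -0.42 (without HDL 4) to 0.20 (without HDL 3) with 1 library left out, and was -1.14 with the macrophage covariate. Robo4, a vascular guidance receptor, had -0.48 ± 0.32, Cldn5, the tight junction claudin, -0.28 ± 0.61, and Egfl7, a secreted endothelial factor overlapped by Agpat2, -0.28 ± 0.67. Cldn5 spanned 6.81 to 63.6 FPKM with LNA489 and 4.81 to 132 FPKM without, a range within each set far wider than the difference between them. Adhesion and chemokine genes had a median of 0.04, which ran from -0.24 to 0.18 with 1 library left out and was -0.90 with the macrophage covariate. Of that list, Cxcl10, the interferon-induced chemokine, overlapped by Art3, Icam1, the leukocyte adhesion receptor, and Cxcl12, the CXCR4 ligand, had the smallest p, and none was under an unadjusted 0.05.

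TGF-beta signalling genes had a median of -0.05 (0.17 on log2(FPKM + 0.1), and -0.12 to 0.06 with 1 library left out), with 9 of 23 members above 0. Zeb2, a transcription factor of mesenchymal transition that macrophages also express, had 0.58 ± 0.23, with exons overlapped by Zeb2os. It was the 1 of 23 members under an unadjusted 0.05, against 2.81% of all tested genes. Tgfbr1, the type I receptor, had 0.53 ± 0.31 and Smad4, the common mediator, -0.19 ± 0.10 (0.03 on log2(FPKM + 0.1)). Among angiogenesis and Notch genes, 6 of 19 lay above 0 and the median was -0.11 (0.07 on log2(FPKM + 0.1), -0.32 to 0.01 with 1 library left out, and -0.69 with the macrophage covariate); Hes1, a Notch target, had -0.45 ± 0.19 (unadjusted p = 0.031), while Vegfc, a lymphatic growth factor, and its receptor Flt4 did not reach an unadjusted 0.05. B and plasma cell genes had a median of -0.46, with 1 of 9 above 0. That median rested on HDL 11: it was 0.08 without that library, and 0.66 with the macrophage covariate. Jchain, the immunoglobulin joining chain, measured 1.59 to 21.1 FPKM with LNA489 and 2.28 to 125 FPKM without, the 125 being HDL 11, the library rich in B cell genes. Without HDL 11 and LNA489 7 together, an alternative chosen after seeing the data, the B cell genes Ms4a1 and Pax5 were at 0.12 and 0.07. Interferon response, unfolded protein response, cell cycle and cholesterol synthesis genes had medians of 0.04 to 0.09, with signs that varied with the library left out except for the unfolded protein response, and no member under an unadjusted 0.05.

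LNA489 against HDL and dual against LNA92a, the 2 estimates of the LNA489 effect, differed in which genes lay high or low. For LNA489 against HDL limma called 0 genes (0%), with 674 at an unadjusted p under 0.05 (4%), and for dual against LNA92a 0 (0%), with 474 (2.81%). The 674 became 405 without LNA489 7, 445 without HDL 23, 1427 without LNA489 13 and 2612 without HDL 4, and the 474 became 305 without Dual 10 and 312 without Dual 21, with 0 called each time. Their differences share no library, and over 16848 genes Pearson's r between them was -0.30 and Spearman's rho -0.23, with the same sign in 43.5%, a description across genes that are not independent. The interaction, which tests whether the estimates differ, called 0 genes (0%), with 572 at an unadjusted p under 0.05 (3.4%) and a smallest adjusted p of 0.637. Without LNA489 13 it called 5 genes, with 1595 at an unadjusted p under 0.05, and the 572 became 2116 without HDL 4 and 330 without Dual 21. Of the 16848 tested genes, 52 had an unadjusted p under 0.05 in both estimates, and of these 12 went the same way and 40 opposite ways. Both estimates use the same residual variance for a gene, so the 52 are not the overlap of 2 independent tests.

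The 12 comprised 2 higher genes, Epb41l3 and Cyp4v3, and 10 lower ones. The lower ones were Kin, Hexim2, the small RNA genes AF357399, Snora57, Gm25492 and Gm26347, and Gm10916, Gm12264 and 2 genes known only by clone names. Of the 40, 32 were higher for LNA489 against HDL and lower for dual against LNA92a. Many of the 32 are muscle genes, among them Tcap, Myl7, Ankrd1, Myoz2, Lmod2, Casq2 and Actn2. Only 4 of the 52 belong to the striated and cardiac muscle list, which holds 13 markers. Those 4 muscle genes were Myh6, the cardiac myosin heavy chain (2.45 ± 1.05 and -3.93 ± 1.05), Actc1, cardiac actin (3.07 ± 0.93 and -3.50 ± 0.93), Tnnt2, cardiac troponin T (2.10 ± 0.86 and -3.42 ± 0.86), and Tnni3, cardiac troponin I (2.08 ± 0.81 and -2.81 ± 0.81).

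**Figure D3:**
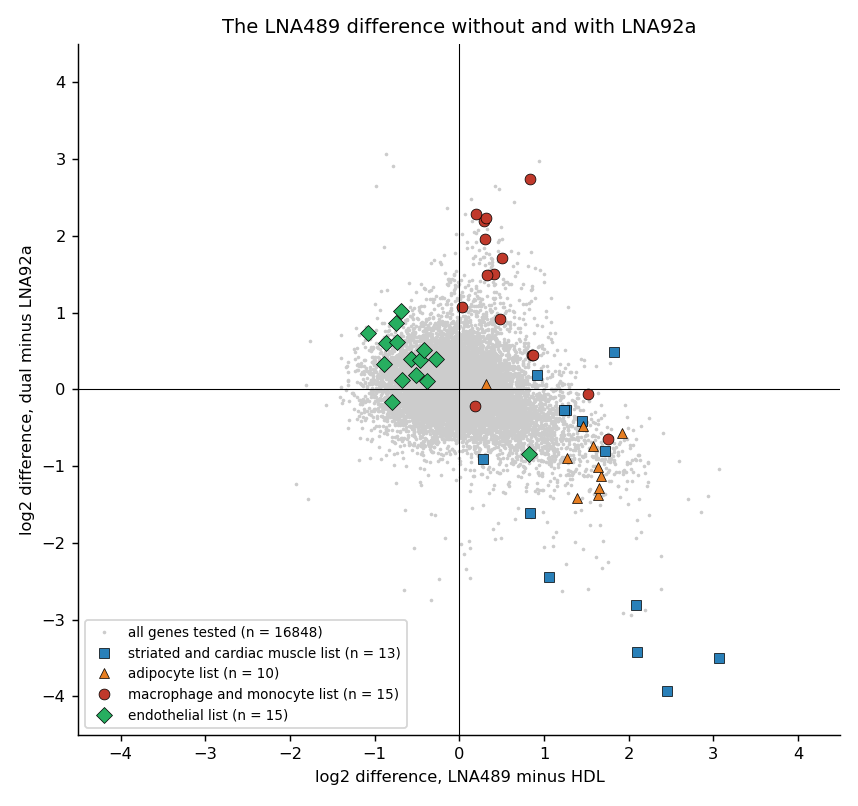
Log2 difference per gene for LNA489 against HDL (x axis) and for dual against LNA92a (y axis), for 16848 genes (grey), with the members of 4 cell type lists marked. Muscle and adipocyte genes lie mostly at the lower right (list medians 1.45 and -0.91, 1.60 and -0.95), macrophage genes mostly at the upper right (0.41 and 1.49) and endothelial genes mostly at the upper left (-0.68 and 0.40).

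Actc1 shows the pattern library by library. It measured 33.5, 10.5, 15.5 and 68.6 FPKM in the LNA489 libraries, against 0.300, 0.932, 2.67 and 6.79 FPKM in the HDL libraries, and these groups did not overlap (1.54% of all genes had no overlap here). In the presence of LNA92a it measured 9.88, 34.9, 5.37 and 0.038 FPKM in the dual libraries, against 44.0, 82.7, 18.0 and 194 FPKM in the LNA92a libraries, where Dual 10 exceeded LNA92a 17. The interaction was -6.57 ± 1.31 (unadjusted p = 1.48e-04, adjusted p = 0.637) and the main effect -0.22 ± 1.03. Saline libraries ran from 0.342 to 126 FPKM, so mice without any inhibitor were also both low and high. Pcp4l1, a small protein related to the calmodulin regulator PCP4, had -2.63 ± 0.51 and Trim54, a muscle RING-finger protein overlapped by Gm15469, -3.03 ± 0.60. On the other side the 3 genes with the smallest p were low-count pseudogene or antisense genes, Gm17151 (1.63), Akirin1-ps (1.53) and Gm20702 (1.75), all uncertain.

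Markers of tissues that border the aorta also had opposite signs in the 2 estimates. In LNA489 against HDL and in dual against LNA92a the list medians were 1.45 and -0.91 for striated and cardiac muscle, 1.60 and -0.95 for adipocyte, 1.54 and -0.83 for fibroblast and adventitia, and 0.78 and -0.60 for oxidative phosphorylation genes. They were -0.68 and 0.40 for endothelial markers, and 1.11 and -0.34 for fatty acid oxidation genes. Summed muscle markers ran from 25.2 to 1337 FPKM with LNA489 and from 36.1 to 702 FPKM without, and the part of these tissues in the genes with opposite differences was not tested. In the main effect the medians were -0.22 for muscle (0.02 on log2(FPKM + 0.1)), 0.23 for adipocyte, 0.41 for fibroblast and 0.04 for oxidative phosphorylation. With 1 library left out these ran from -0.41 to 0.47 for muscle (0.47 without Dual 21), -0.09 to 0.88 for adipocyte (-0.09 without HDL 3, 0.88 without Dual 21), 0.10 to 0.80 for fibroblast and -0.17 to 0.41 for oxidative phosphorylation. The adrenal cortex median was 0.63, with -0.82 and 1.97 in the 2 estimates, and Dual 10 was the 1 HDL-treated library rich in adrenal genes: without it the main-effect median was -0.21.

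**Figure D4:**
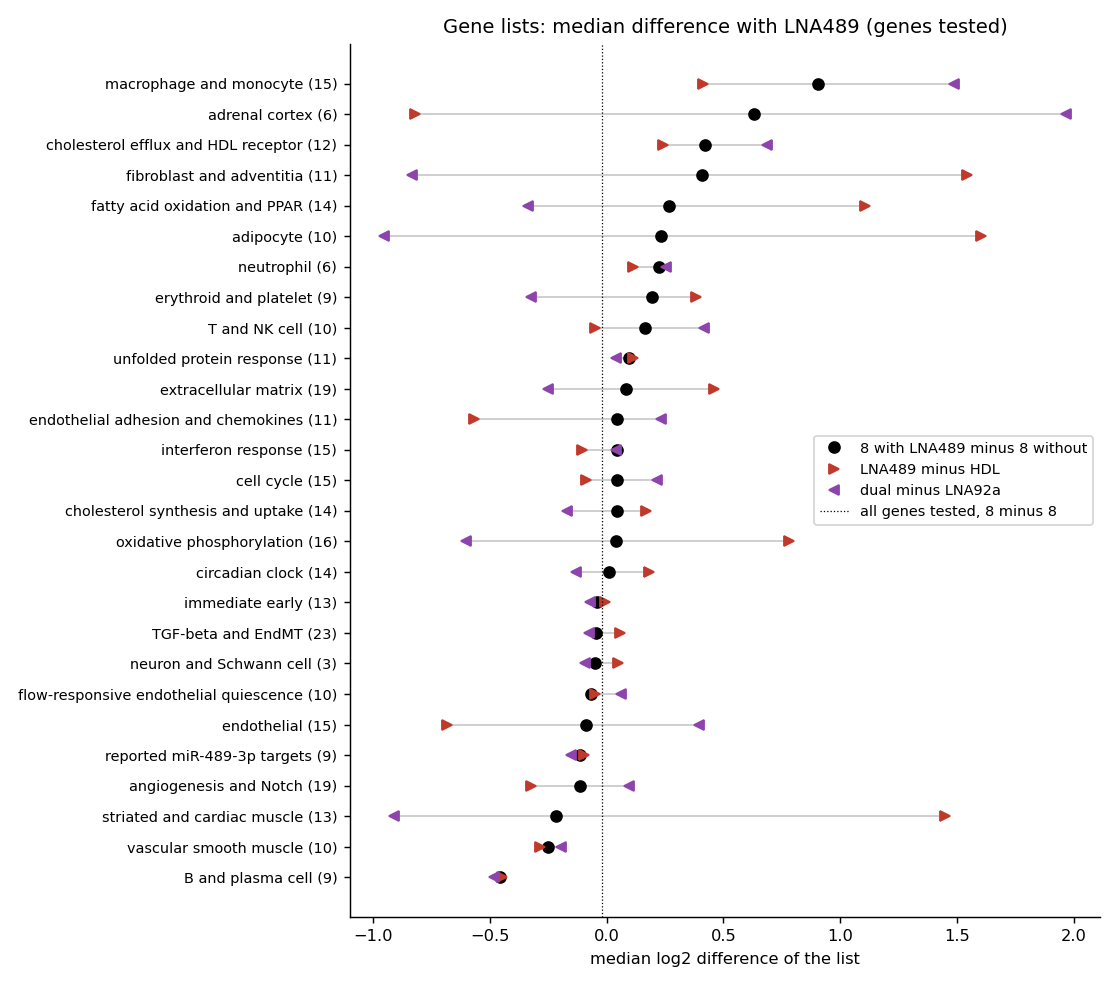
Median log2 difference of each gene list (rows) for the main effect of LNA489, for LNA489 against HDL and for dual against LNA92a (x axis, log2). Macrophage and efflux medians are above 0 in all 3 (0.90, 0.41 and 1.49; 0.42, 0.24 and 0.69), while adipocyte, fibroblast and muscle medians are above 0 in LNA489 against HDL and below 0 in dual against LNA92a.

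Genes with a miR-489-3p seed match had median differences close to that of genes without one. Of 12936 tested genes with an annotated 3′ UTR, 268 (2.07%) held an 8mer, 1039 (8.03%) a 7mer-m8 as their best match, 843 (6.52%) a 7mer-A1, and 10786 (83.4%) none. The median main-effect difference was 0.02 for 8mer genes, -0.01 for 7mer-m8 genes, 0.00 for 7mer-A1 genes and -0.01 for genes with none, and 53.7%, 47.6%, 51.7% and 47.3% of these classes lay above 0. Of the 8mer genes 6 were higher and 3 lower at an unadjusted p under 0.05 (3.36% in all), of those with no match 171 and 106 (2.57%). UTR length differs between the classes, with medians of 2837 bases for 8mer genes and 952 bases for genes with none. For LNA489 against HDL the 8mer median was 0.02 and for dual against LNA92a -0.02. Split instead by the miR-92a-3p seed, the medians were -0.01 for 8mer genes and -0.01 for genes with none.

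**Figure D5:**
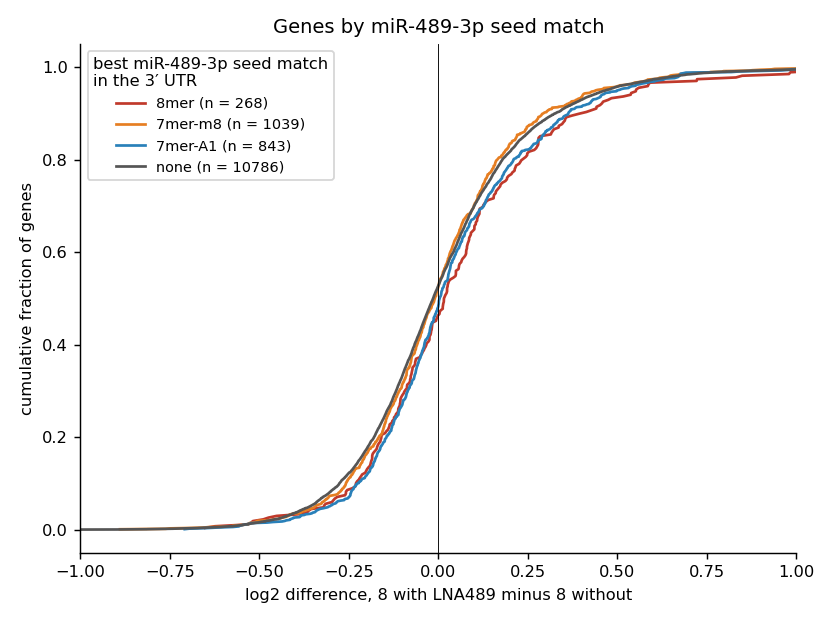
Distribution of main-effect log2 differences (x axis) as cumulative share of genes (y axis) for the 268, 1039, 843 and 10786 tested genes whose longest 3′ UTR holds an 8mer, a 7mer-m8, a 7mer-A1 or no match to the miR-489-3p seed. The curves run close together, with medians of 0.02, -0.01, 0.00 and -0.01, and the 8mer curve lies slightly to the right (53.7% of its genes above 0, against 47.3% of those with no match).

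Igf1, insulin-like growth factor 1, and Fbxo32, the muscle ubiquitin ligase atrogin-1, were the higher genes with an 8mer and the smallest p, at 0.98 ± 0.33 (unadjusted p = 0.00848) and 0.72 ± 0.26 (unadjusted p = 0.0131). Kin, with the smallest p of all 8mer genes, lay on the other side of 0. Reported targets of miR-489-3p, a list written from general knowledge and mostly known from human cells, had a median of -0.11 (0.11 on log2(FPKM + 0.1)) with 3 of 9 tested members above 0 and none under an unadjusted 0.05. Tgfb2, a TGF-beta ligand, measured 2.81, 2.21, 9.39 and 2.17 FPKM in the LNA489 libraries and 1.71, 3.30, 3.62 and 1.97 FPKM in the dual libraries, against 2.10, 3.26, 1.68 and 1.78 FPKM in the LNA92a libraries and 1.80, 2.24, 0.770 and 1.82 FPKM in the HDL libraries. Its difference was 0.38 ± 0.31, with 0.97 ± 0.40 for LNA489 against HDL and -0.21 ± 0.40 for dual against LNA92a, and its mouse 3′ UTR has none of the 3 matches. Dek, a chromatin protein with the 8mer printed above and a second site nearby, ran over 21.2, 26.0 and 32.5 FPKM with LNA489 and 19.9, 22 and 51.1 FPKM without (-0.11 ± 0.13). Prox1, the transcription factor of lymphatic endothelium, had -0.58 ± 0.43.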

How the data were processed

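Total RNA of the aortic endothelium, sheared off with qiazol and made into libraries with a Nugen Ovation kit per the labels' protocols, was sequenced from 20 mice, 4 per group. The authors deposited variance-stabilized log2 read counts for 20442 genes and FPKM for 32081 genes with each gene's length. Named without order or role, per the submitters' processing notes, are STAR 2.5.3a, DESeq2 1.18.1, cutadapt 1.16, the build GRCm38.p5, featureCounts 1.15.29 and FastQC; the strand of counting, the annotation and the treatment of multiply mapped reads are not given in the sources used here. The libraries have separate animal numbers, and p-values measure the spread between these mice. The labels give no batch.

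Depth was read from whole reads recovered from FPKM and gene length: in genes of up to 3000 bases and 1000 reads, 100% came out whole with a tolerance of 0.1, and libraries held 11.6 to 21.4 M assigned reads. Genes with a mean FPKM of at least 0.5 over the 20 libraries were tested, 16848 in all. Limma 3.58.1 in R 4.3.3 was fitted to the deposited log2 values of the 16 HDL-treated libraries with moderated, trended variances, for the main effect with LNA489 and LNA92a as terms (13 residual degrees of freedom) and for the 2 estimates and the interaction with 4 group means (12). Tests are 2-sided, and calls need a Benjamini-Hochberg adjusted p under 0.05 over all genes tested. The script was tested on simulated data. On the variance-stabilized scale differences of weakly expressed genes are compressed. Library measures were compared by an exact permutation test over 4900 arrangements within LNA92a strata.

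Named genes are the 10 per direction (3 for the interaction) with the largest difference among called genes with mean FPKM of at least 1. Where too few were called, they were filled by the smallest p. Also named are up to 3 members per described list with the smallest p, and Calcr, Tgfb2 and Apoe. Pecam1 and Cd14 were named outside this rule. Other genes outside it are said to be chosen after their values were seen or come from the following. These are the 52 genes past an unadjusted threshold in both estimates and the site lists. Some genes that the rule names are not reported here. The members, lists and tests were chosen with earlier results of these data known. Seed matches were searched in the longest 3′ UTR of GENCODE M21 basic protein-coding transcripts; with versions ignored, 31929 gene identifiers are in that release. Alternatives were other scalings, pseudocounts, filters, voom on the recovered reads with TMM factors, library weights, covariates, and each library left out.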

Additional observations from a re-analysis of the deposited data

Results flagged for a closer look

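Of 232 groups of 4 values checked (named genes, list means and library measures), 28 had 1 library far from the other 3, by a gap above Dixon's 95% critical value for 4 samples (12.1%; chance gives about 1 in 20, and the lists share genes and libraries). Gene values and list means here are on the variance-stabilized log2 scale. For Gm44418, Gm26347, Gm17151, Akirin1-ps and Gm20702 the other 3 libraries were tied at the floor of 4.21. There any value off the floor is flagged whatever its size, so the chance rate does not apply to these flags, which are counted in the 28.

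LNA489 13 accounts for 11 of the 28, including the flags against a tied floor for Gm26347, Akirin1-ps and Gm20702. In the LNA489 group it was highest for Slc6a6 (12.90, the others 11.28 to 11.52), Cyp4v3 (9.94), Kcna2 (10.27) and the cholesterol efflux list (10.97, the others 9.72 to 9.84), and also for Gm26347 (4.81), Akirin1-ps (4.64) and Gm20702 (4.64), where the floor is 4.21. It was lowest for the adipocyte list (8.41, the others 11.53 to 12.17), the striated and cardiac muscle list (6.19, the others 9.05 to 9.48), the extracellular matrix list (10.55) and the cholesterol synthesis list (7.61).

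In the dual group, Dual 10 was far above the others for the adrenal cortex list (12.32, the others 5.40 to 6.21) and for Pcp4l1 (7.08). Dual 15 was lowest for Kcna2 (8.54) and Dual 21 highest for Gm26347 (5.07). In the LNA92a group, LNA92a 5 was lowest for Rflnb (7.88), the TGF-beta list (9.39) and the vascular smooth muscle list (7.85, the others 8.81 to 8.90), and had the 1 value off the floor for Gm17151 (4.66). LNA92a 18 was highest for Creg1 (11.27), Gm44418 (4.78) and the cholesterol efflux list (10.10), LNA92a 17 for Gm20702 (4.64), and LNA92a 12 for the extracellular matrix list (12.01, the others 10.63 to 10.67) and assigned reads (17.8 M, the others 11.6 to 12.1 M). In the HDL group, HDL 11 was lowest for Cyp4v3 (8.13, the others 8.77 to 8.84) and the neuron and Schwann cell list (5.58), and HDL 4 highest for oxidative phosphorylation (12.59, the others 9.35 to 9.86).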

How the results depend on the processing

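The main effect called 0 genes under its 29 alternatives and each estimate under its 24, among them each library left out (0 to 0), with smallest adjusted p-values of the main effect between 0.11 and 1.00. The main effect's 474 genes at an unadjusted p under 0.05 became 766 on log2(FPKM + 0.1), 740 on log2(FPKM + 1), 1351 with library weights, 1040 with endothelial and adipocyte list means as covariates (smallest adjusted p 0.11), 731 with the macrophage list mean as a covariate, 735 without HDL 11 and LNA489 7, and 303 to 634 with 1 library left out (303 without LNA92a 17). On log2(FPKM + 0.1) with median-centred libraries they were 487. The macrophage covariate, the median-centred FPKM and the joint omission were chosen after seeing the data. The interaction called 0 to 5 genes with 1 library left out, the 5 without LNA489 13: Ckmt2, Casq2, Lmod2, Hrc and Actn2, at -5.35 to -4.05. All of these are muscle genes outside the striated and cardiac muscle list. At an unadjusted p under 0.05, the 674 genes for LNA489 against HDL became 3367 with library weights and fewer with a mean FPKM of at least 2. That filter tested 11677 genes instead of 16848, so counts under it have a smaller base. The 474 for dual against LNA92a became 1997 on log2(FPKM + 0.1), 1851 on log2(FPKM + 1) and 930 with library weights. The 572 of the interaction became 1355 on log2(FPKM + 0.1), 1349 on log2(FPKM + 1), 2376 with library weights, 309 with a mean FPKM of at least 2 and 381 with the endothelial and adipocyte covariates. The cause of these changes was not tested.

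Of the named genes reported here, these changed sign. With the macrophage covariate Apoe was at -0.30, C1qa -0.013, Jchain 0.16, Ms4a1 0.30, Pax5 0.75, Prox1 0.050, Tgfbr1 -0.18, Procr -0.17, Pltp -0.018 and Abca1 -0.11. C1qa is itself part of that covariate, so the loss of its difference is no separate result. Without HDL 11 and LNA489 7, Ms4a1 was at 0.12 and Pax5 at 0.074. On log2(FPKM + 0.1) and log2(FPKM + 1), where all genes shift by 0.19 and 0.14, Smad4 was at 0.026 and 0.025. Procr was at -0.0092 with library weights, and leaving out 1 library gave Cldn5 -0.56 to 0.043 and Egfl7 -0.61 to 0.0066. None of the 20 main-effect genes with the smallest p changed sign. They were picked by their p in these same libraries, so an unchanged sign was likely from the start and is no check of them. The macrophage covariate brought most of the higher ones closer to 0 (Creg1 to 0.21). No paired analysis was possible because the animal numbers differ between groups and none is shared.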

Other observations

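Small noncoding RNA genes, a grouping chosen after values were seen, lay mostly below 0 in the main effect of LNA489. Of 107 tested small nucleolar RNA genes, 76 were below 0 (53.8% of all tested genes were), with a median of -0.17 against -0.02 for all genes, and 12 were lower and 0 higher at an unadjusted p under 0.05, where the background for lower genes is 1.39%. Of 89 small nuclear RNA genes 9 were lower and 1 higher, and of 88 microRNA genes 8 were lower and 0 higher. None was called. The 2 estimates had unequal medians: the small nucleolar RNA median was -0.27 for LNA489 against HDL and -0.02 for dual against LNA92a, the small nuclear RNA medians -0.20 and -0.01, and the microRNA medians -0.20 and 0.00. Other noncoding genes shared this, with 67.5% of sense intronic, 60.7% of antisense and 58.9% of long intergenic genes below 0. Their medians in the 2 estimates were -0.24 and 0.04, -0.20 and 0.08, and -0.17 and 0.04. An unadjusted p under 0.05 in either direction was found in 3.33%, 2.84% and 3.54% of them. For small nucleolar, small nuclear and microRNA genes it was 11.2%, 11.2% and 9.09%. The difference between the estimates was not tested for any of these groups. The libraries with LNA489 also averaged a lower Rn18s-rs5 share (6.6% against 11.8% of reads) and more assigned reads. The gap in the share lay between the dual libraries (3.25% to 9.11%) and LNA92a 5, 17 and 18 (18.2% to 22.4%). The LNA489 libraries, at 4.16% to 12.0%, overlapped the HDL libraries, at 4.79% to 10.5%. The part of the ribosomal share and of the assigned reads in the small RNA values was not tested.

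Over the 16 libraries, the first principal component of the tested genes held 44.8% of the variance, of which LNA489 accounted for 0.604% after LNA92a, and the second held 12.8%, with 0.531%. The third held 8.11%, with 21.7%.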
